A study of Mus musculus with 6 samples.

Results

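The Ly6 genes of the mouse encode small surface proteins that fold into a single cysteine-rich domain and are held on the outer face of the plasma membrane by a glycosylphosphatidylinositol (GPI) anchor. The 9 members described here are Ly6a, Ly6c1, Ly6c2, Ly6d, Ly6e, Ly6g, Ly6h, Ly6i and Ly6k, and they were found as the rows of the deposited value table whose platform annotation names one of them. The array measures transcript clusters, each being a set of probes along 1 transcribed region, and 8 of 35556 clusters named a member. Ly6e, Ly6i, Ly6g, Ly6h, Ly6d and Ly6k were each named alone by 1 cluster, and 2 further clusters were shared by Ly6c1 and Ly6c2. Because those 2 clusters name both genes, Ly6c1 and Ly6c2 cannot be told apart. Ly6a was named by no cluster in the annotation used and was not analysed here, so that 8 of the 9 genes had a cluster.

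Male C57BL6 mice of 7 to 8 weeks received 1 intraperitoneal injection of LPS at 4 mg/kg, from Escherichia coli, or the same volume of vehicle (PBS). LPS, the outer membrane lipopolysaccharide of Gram-negative bacteria, is sensed through toll-like receptor 4. Whole brains were taken at 48 hours from 3 LPS-treated and 3 vehicle-treated mice that had been perfused with PBS, and each brain gave 1 Affymetrix GeneChip array. A whole brain mixes neurons, glia, vessels and any blood cells that perfusion left, and in such bulk tissue more cells of a type and more RNA per cell cannot be told apart. The comparison asks which Ly6 genes differed in the brain after a systemic inflammatory challenge.

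As background, several Ly6 proteins are used to mark blood and vascular cells. Ly6C, the product of Ly6c1 and Ly6c2, marks classical monocytes among mouse leucocytes, and Ly6c1 is also transcribed by the endothelium of brain vessels. Ly6G is the surface antigen by which mouse neutrophils are recognised, Ly6E is a widely expressed, interferon-induced protein that limits the entry of some viruses, and Ly6H is a neuronal protein that binds nicotinic acetylcholine receptors. Ly6D marks a stage of B lymphocyte development and is made by keratinocytes, and Ly6K is found in the testis.

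The members lie together on chromosome 15 (GRCm38.p6). In order along the chromosome, Ly6d lies at chr15:74762056-74763567, Ly6k at chr15:74796874-74799968, Ly6e at chr15:74955025-74959904, Ly6i at chr15:74979534-74983434 and Ly6a at chr15:74994877-74998031. Ly6c1 follows at chr15:75044018-75048920, Ly6c2 at chr15:75108161-75112066, Ly6g at chr15:75155261-75159128 and Ly6h at chr15:75564745-75569470.

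RefSeq promoter windows (GRCm38.p6, 250 bases before to 50 after the start) were held for 3 members, namely Ly6c1, Ly6c2 and Ly6g. One window each is printed because these neighbours include the genes with the largest difference and one that did not pass the test, and capitals mark a run of 16 bases that all 3 windows share. The windows are chr15:75048788-75049087 on the minus strand for Ly6c1, chr15:75111922-75112221 on the minus strand for Ly6c2 and chr15:75155079-75155378 on the plus strand for Ly6g.
Ly6c1: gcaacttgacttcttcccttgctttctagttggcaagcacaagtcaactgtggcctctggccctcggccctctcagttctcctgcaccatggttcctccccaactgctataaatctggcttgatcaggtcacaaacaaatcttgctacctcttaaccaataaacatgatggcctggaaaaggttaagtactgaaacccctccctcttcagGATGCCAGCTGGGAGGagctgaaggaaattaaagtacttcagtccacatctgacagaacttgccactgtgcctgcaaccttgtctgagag
Ly6c2: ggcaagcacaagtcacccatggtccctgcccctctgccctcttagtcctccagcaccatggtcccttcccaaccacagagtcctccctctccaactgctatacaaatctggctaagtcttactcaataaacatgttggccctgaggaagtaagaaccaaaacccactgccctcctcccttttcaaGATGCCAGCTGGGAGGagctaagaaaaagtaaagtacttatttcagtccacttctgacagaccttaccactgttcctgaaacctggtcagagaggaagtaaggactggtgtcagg
Ly6g: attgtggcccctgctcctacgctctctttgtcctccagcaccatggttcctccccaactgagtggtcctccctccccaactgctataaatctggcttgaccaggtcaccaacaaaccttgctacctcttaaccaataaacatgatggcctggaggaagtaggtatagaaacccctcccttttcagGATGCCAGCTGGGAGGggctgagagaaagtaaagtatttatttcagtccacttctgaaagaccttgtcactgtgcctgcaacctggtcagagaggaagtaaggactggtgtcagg

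Ly6c1, Ly6c2 and Ly6g each have 2 windows with different starts, and the starts of the printed windows lie inside the gene positions given above. Counted from those starts, the shared run begins 40 bases before the start for Ly6c1 and 65 bases before it for Ly6c2 and Ly6g. The run itself lies inside the gene positions given above, so it is not upstream of these genes as positioned there. Among all promoter windows of the table it occurred in 7, which belong to the 4 genes Ly6a2, Ly6c1, Ly6c2 and Ly6g. Over their overlap the Ly6c1 and Ly6c2 windows were identical at 208 of 282 positions (73.8%). The Ly6g window was identical to that of Ly6c1 at 78.9% and to that of Ly6c2 at 75.7% of the aligned positions. Both strands were searched for the core of the interferon-stimulated response element (GAAANNGAAA) and for the gamma-activated sequence (TTCNNNGAA), of which 3.44% and 8.3% of 32851 promoter windows of full length hold a match. Neither set of letters was in a window of Ly6c1, Ly6c2 or Ly6g, which says only that these letters are not in these windows.

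The values are log2 expression values, on which a difference of 1 is a 2-fold change. The median over all clusters was 7.09, 7.11 and 6.96 on the LPS arrays and 6.98, 6.96 and 6.96 on the PBS arrays. Along the leading principal component (54.5% of the variance) LPS replicates 1 and 2 stood at -32.9 and -48.3, LPS replicate 3 at 15.2 and the 3 PBS arrays between 16.1 and 25.2, so that member values are also given without LPS replicates 1 and 2. That fit holds 1 LPS array, and its spread comes from the 3 PBS arrays alone, on the assumption that LPS brains vary as much. As a guide to background, 1372 clusters that name only olfactory or vomeronasal receptors, which the brain hardly transcribes, had medians of 5.69 to 5.82 and 90th percentiles of 6.26 to 6.46 over the 6 arrays. The neuronal markers were high, with a list mean of 11.81 to 11.85 on the LPS arrays and of 11.84 to 11.90 on the PBS arrays, so the defining markers of the labelled tissue were present.

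In the brains of LPS-treated mice both shared Ly6c1/Ly6c2 clusters and Ly6e were higher than in vehicle-treated controls, by 1.84-fold, 1.83-fold and 1.51-fold. No member was lower. By limma with Benjamini-Hochberg adjustment over all clusters, 3 of 8 member clusters (37.5%) were higher, against 0.652% of all clusters, and 0 were lower, against 0.0619% of all clusters. At an unadjusted p under 0.05, 5 member clusters were higher and 0 lower, both by limma and by the methods' t-test, which called 0 in either direction after adjustment. Of all 35556 clusters, 2733 were higher and 2341 lower at an unadjusted p under 0.05 by limma, which is the background for later counts at this threshold. The LPS and PBS arrays did not overlap for 5 of 8 member clusters (62.5%), while the same held for 20.0% of all clusters. The median difference over the 8 clusters was 0.54, against -0.0009 over all clusters. Both shared clusters name the same pair of genes, so they are not separate evidence within these counts. The members were also chosen with earlier results of these data known. The shares beside those of all clusters are therefore a description and not a test.

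**Figure D1:**
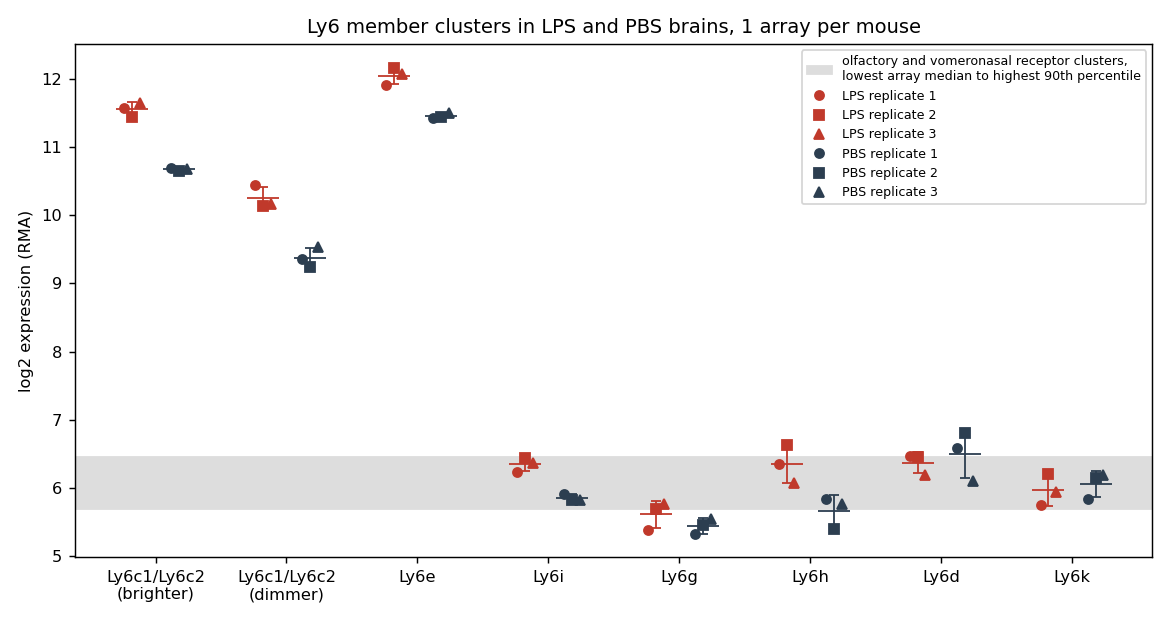
Log2 expression of the 8 member clusters on each array, LPS left of PBS, with a point for each mouse, the group mean as a horizontal bar, the SD (n = 3) as an error bar, and a grey band that spans the lowest median to the highest 90th percentile of the receptor clusters. The shared Ly6c1/Ly6c2 clusters, Ly6e, Ly6i and Ly6h have all 3 LPS points above all 3 PBS points, and Ly6g, Ly6d and Ly6k overlap.

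Of the clusters shared by Ly6c1 and Ly6c2, the one with the brighter signal read 11.57, 11.45 and 11.65 in LPS-treated mice, against 10.69, 10.66 and 10.68 in vehicle-treated controls. The lowest LPS brain was above the highest PBS brain, and the 3 PBS brains were nearly equal. The means were 11.56 ± 0.10 in LPS-treated mice and 10.68 ± 0.02 in vehicle-treated controls (SD, n = 3 each), a log2 difference of 0.88 (SE 0.08, 95% interval 0.69 to 1.07, limma adjusted p = 0.00713). With LPS replicates 1 and 2 left out the difference was 0.98 (limma adjusted p = 0.0561). Leaving out PBS replicate 1, 2 or 3 alone gave adjusted p = 0.0545, 0.0606 and 0.0553, and the methods' t-test gave 0.0672.

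The dimmer of the clusters shared by Ly6c1 and Ly6c2 read 10.44, 10.14 and 10.16 in LPS-treated mice, against 9.35, 9.24 and 9.53 in vehicle-treated controls. The groups were again apart. LPS brains averaged 10.25 ± 0.17 and PBS brains 9.38 ± 0.14 (SD, n = 3 each), a difference of 0.87 (SE 0.12, 95% interval 0.59 to 1.15, limma adjusted p = 0.0311). Without LPS replicates 1 and 2 it was 0.78 (limma adjusted p = 0.184). Leaving out a single array gave a limma adjusted p of 0.0858 to 0.16 for every array but LPS replicate 3, without which it was 0.0128. Both clusters name the same pair of genes, so they do not count as separate evidence, and their responses differed by 0.01 (exact permutation p = 1, two-sided). The cluster was no longer called with the arrays centred on their medians (adjusted p = 0.0539) or by the methods' t-test (0.192).

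Ly6e, whose product is a broadly expressed interferon-induced protein, read 11.92, 12.16 and 12.07 in LPS-treated mice, against 11.43, 11.45 and 11.50 in vehicle-treated controls. All LPS values lay above all PBS values. The means were 12.05 ± 0.12 in LPS-treated mice and 11.46 ± 0.04 in vehicle-treated controls (SD, n = 3 each), and the difference was 0.59 (SE 0.09, 95% interval 0.38 to 0.80, limma adjusted p = 0.0421). With LPS replicates 1 and 2 left out the difference in Ly6e was 0.61 (limma adjusted p = 0.152). The call was lost without any single array other than LPS replicate 3 (limma adjusted p = 0.0773 to 0.219), when the arrays were centred on their medians (0.126) and by the methods' t-test (0.159), while the size of the difference stayed between 0.48 and 0.66 over all alternatives.

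Ly6i, a close relative of Ly6c1 in sequence and position, read 6.23, 6.44 and 6.37 in LPS-treated mice, against 5.92, 5.82 and 5.82 in vehicle-treated controls. The groups did not overlap. The difference was 0.49 (SE 0.08, 95% interval 0.29 to 0.70), a fold change of 1.41, and did not pass the test (limma adjusted p = 0.0768). Signal was low, since 1 LPS array and 0 PBS arrays were above the 90th percentile of the receptor clusters. Ly6i passed when LPS replicate 3 was left out (limma adjusted p = 0.0296), whereas without LPS replicates 1 and 2 the difference was 0.51 (limma adjusted p = 0.225).

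Ly6h, known as a neuronal gene, read 6.35, 6.63 and 6.07 in LPS-treated mice, against 5.83, 5.39 and 5.76 in vehicle-treated controls. The groups did not overlap, but all PBS values lay below the 90th percentile of the receptor clusters, so this cluster gave little signal in a tissue where the gene is known to be transcribed. The difference was 0.69 (SE 0.18, 95% interval 0.27 to 1.11), and it did not pass the test (limma adjusted p = 0.187). Ly6h passed without LPS replicate 3, where the difference was 0.83 (limma adjusted p = 0.0272), and without LPS replicates 1 and 2 it was 0.41 (limma adjusted p = 0.546).

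Ly6g, which encodes the neutrophil antigen, read 5.38, 5.69 and 5.76 in LPS-treated mice, against 5.32, 5.46 and 5.54 in vehicle-treated controls. The groups overlapped, and all 3 PBS arrays and 2 of the LPS arrays were below the receptor median. The difference was 0.17 (95% interval -0.12 to 0.46, limma adjusted p = 0.548), which leaves room for anything between a slight decrease and a fold change of 1.37. Without LPS replicates 1 and 2 it was 0.32 (limma adjusted p = 0.488).

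Ly6d read 6.47, 6.45 and 6.19 in LPS-treated mice, against 6.58, 6.80 and 6.10 in vehicle-treated controls. The groups overlapped, with a difference of -0.12 (95% interval -0.56 to 0.31, limma adjusted p = 0.787), and of -0.30 without LPS replicates 1 and 2. Ly6k, a testis gene, read 5.74, 6.20 and 5.94 in LPS-treated mice, against 5.83, 6.14 and 6.19 in vehicle-treated controls, with a difference of -0.09 (95% interval -0.45 to 0.26, limma adjusted p = 0.802), and of -0.11 without LPS replicates 1 and 2. For Ly6g, Ly6d and Ly6k no alternative gave a call.

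**Figure D2:**
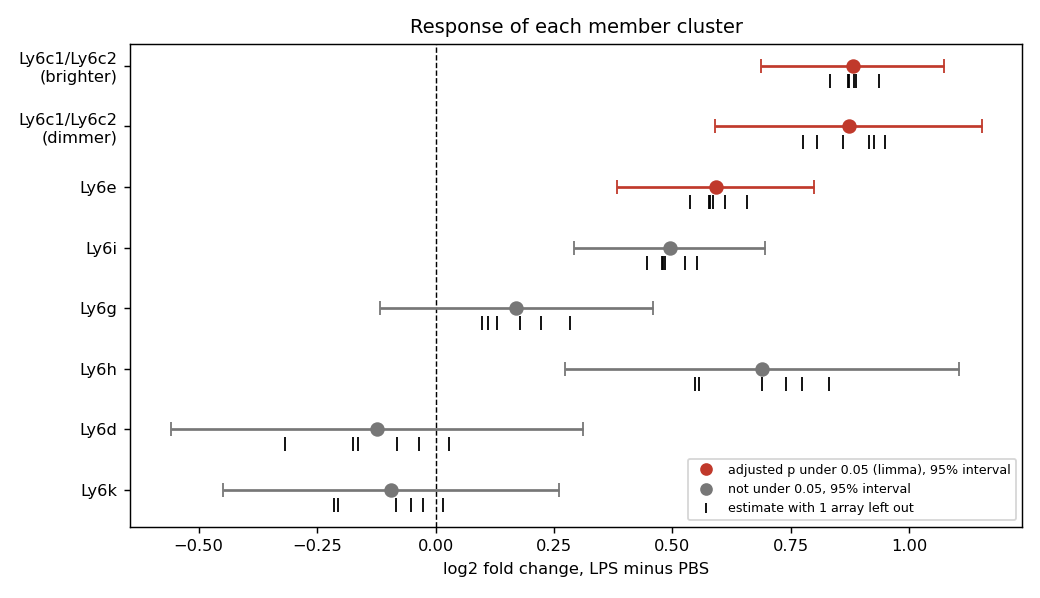
Log2 difference, LPS minus PBS, of each member cluster (points, red where it passed the test) with its 95% interval from limma (bars), ticks for the estimates with 1 array left out, and a line at 0. The intervals of the shared Ly6c1/Ly6c2 clusters, Ly6e, Ly6i and Ly6h lie above 0, and those of Ly6g, Ly6d and Ly6k include it.

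Whether one member differed more than another was tested on the difference between 2 clusters within each array. Because RMA understates the fold changes of low values, a smaller response of a dim cluster is in part built in, and 5 of the 6 members named alone were dim. The LPS and PBS arrays were apart for 10 of the 15 pairs of members named alone, and the smallest exact two-sided permutation p that 3 against 3 arrays allow is 0.1 (0.15 after Benjamini-Hochberg adjustment). Each of these pairs holds at least 1 dim cluster, so they do not rank the members. Between bright clusters, in a pair added after the data were seen, the response of the brighter Ly6c1/Ly6c2 cluster exceeded that of Ly6e by 0.29 with the groups apart (exact permutation p = 0.1, 0.14 adjusted over 7 pairs), which does not pass the threshold.

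The members share a stretch of 883.4 kb of chromosome 15, between Psca and Gpihbp1, with other genes of the family. Of 45 genes annotated there, 20 had no cluster, Ly6a among them, and 25 clusters were measured, of which 8 were those of the members. By limma, 0 of the other 17 clusters passed, as by the methods' t-test, with 0 higher and 1 lower at an unadjusted p under 0.05. Their differences ran from -0.29 for Them6, a thioesterase family gene, to 0.38 for a cluster of Gml, with a median of -0.06. Lynx1, a brain relative of Ly6h that also binds nicotinic receptors, averaged 10.76 in LPS-treated mice and 10.92 in vehicle-treated controls, a difference of -0.15 (limma adjusted p = 0.485). Gpihbp1, which carries lipoprotein lipase on capillary endothelium, differed by -0.20 (limma adjusted p = 0.537). Ly6f, Ly6g2 and Ly6m, neighbours of the members, differed by -0.14, 0.18 and -0.02. The Ly6c1/Ly6c2, Ly6e and Ly6i clusters thus lay among measured neighbours outside the member list whose differences were smaller. Some of these neighbours were dim, among them Psca, Slurp1 and Ly6m with PBS means of 4.90, 5.07 and 5.70. Others, such as Lynx1, were bright. For the dim ones a smaller response is in part built in, so the contrast does not rank the genes.

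**Figure D3:**
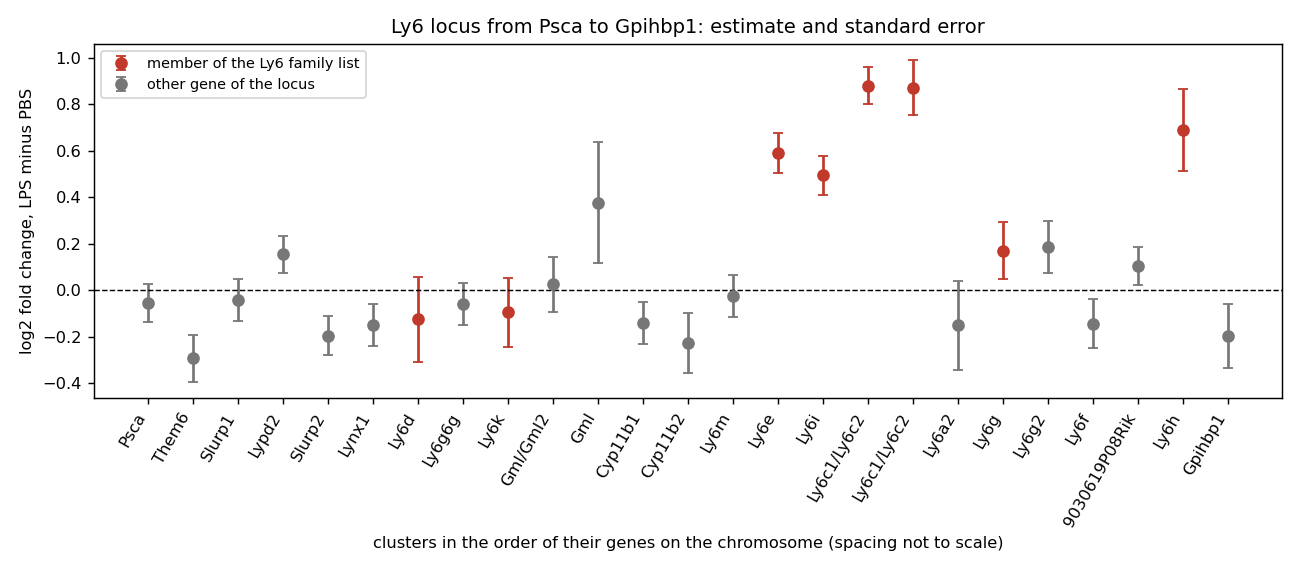
Log2 difference, LPS minus PBS, of the measured clusters in their order along the Ly6 stretch of chromosome 15, with the standard error from limma as bars, members in red and other genes in grey, spacing not to scale. The clusters of Ly6e, Ly6i, Ly6c1/Ly6c2 and Ly6h lie between 0.49 and 0.88, and all other clusters, Ly6g, Ly6d and Ly6k included, between -0.29 and 0.38.

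The Ly6 proteins belong to a larger superfamily that includes the urokinase receptor and CD59. Of 51 genes listed outside the 9 members, 43 were named alone, and limma called 0 higher and 0 lower, with a median difference of -0.02. At an unadjusted p under 0.05 there were 0 higher and 2 lower, and the methods' t-test called 0. Of the 43, 19 were below the receptor median in PBS brains. Cd59a, the inhibitor of the complement membrane attack complex, differed by -0.01, and Plaur, the urokinase receptor, by 0.12. Lypd6b, which was among the 2 at the unadjusted threshold, differed by -0.49 (limma adjusted p = 0.199). The enzymes that build and attach the GPI anchor, on which Ly6 proteins depend, gave 0 higher and 0 lower of 30 (1 and 0 at an unadjusted p under 0.05, and 0 by the methods' t-test), with a median of -0.03. The neuronal nicotinic receptor subunits, partners of Ly6H and Lynx1, gave 0 of 9 in either direction, also without adjustment and by the methods' t-test. Chrna7 differed by 0.15 (limma adjusted p = 0.517).

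Interferon-stimulated genes, to which Ly6e belongs by its known regulation, were higher in 13 of 21 measured alone, with 0 lower. Their median difference was 1.06. At an unadjusted p under 0.05 by limma, 21 were higher and 0 lower. Several of these genes were picked by the study on these same brains, so neither their direction nor their size is independent evidence. Irf7, the transcription factor that amplifies interferon production, differed by 2.60 (limma adjusted p = 0.00153) and Ifitm3, a membrane protein that blocks virus entry, by 2.08 (limma adjusted p = 0.000878). The differences of Ly6e and of the Ly6c1/Ly6c2 clusters were smaller than the list median of 1.06. Because the list was partly picked on these brains, this does not rank them against interferon-stimulated genes in general. The count of interferon-stimulated genes ran from 8 to 17 with a single array left out and was 9 without LPS replicates 1 and 2. The methods' t-test called 0 of them after adjustment.

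Because Ly6C and Ly6G mark other cells, the markers of those cells were read beside them. Of 18 endothelial markers 9 were higher, 0 were lower and 9 did not pass, with a median difference of 0.75. The list mean lay between 8.68 and 8.76 on the LPS arrays and between 7.90 and 8.10 on the PBS arrays. At an unadjusted p under 0.05 by limma, 14 were higher and 0 lower, and the rest were Erg, Egfl7, Ocln and Slc2a1. These differed by 0.27, 0.25, 0.19 and -0.07. Cldn5, the tight junction protein of brain endothelium, differed by 0.98 (limma adjusted p = 0.00456), Pecam1 by 1.04 (limma adjusted p = 0.0207) and Vwf, a clotting protein of endothelium, by 1.17 (limma adjusted p = 0.00243). The count of endothelial genes was 5 to 11 with a single array left out, 2 without LPS replicates 1 and 2 and 0 by the methods' t-test. The part of endothelial RNA in the Ly6 differences was not tested.

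Less the mean of the 18 endothelial genes on the same array, an alternative added after the data were seen, the brighter Ly6c1/Ly6c2 cluster stood at 2.76 to 2.90 in LPS-treated mice, against 2.59 to 2.75 in vehicle-treated controls. The difference was then 0.18 with the groups barely apart (exact permutation p = 0.1). For the dimmer cluster it was 0.17 with the groups overlapping (exact permutation p = 0.2). Ly6e stood at 3.24 to 3.47 in LPS-treated mice, against 3.40 to 3.54 in vehicle-treated controls, a difference of -0.11 (exact permutation p = 0.3). The subtraction lowers the difference of every member by the same 0.70, the difference of the endothelial mean. The size of each remainder is therefore set by the subtraction and measures no part of a member's RNA. This holds for the Ly6c1/Ly6c2 clusters as well as for Ly6e, whose own difference (0.59) was smaller than that. No other list was subtracted, and the part of endothelial RNA was not tested by this step.

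**Figure D4:**
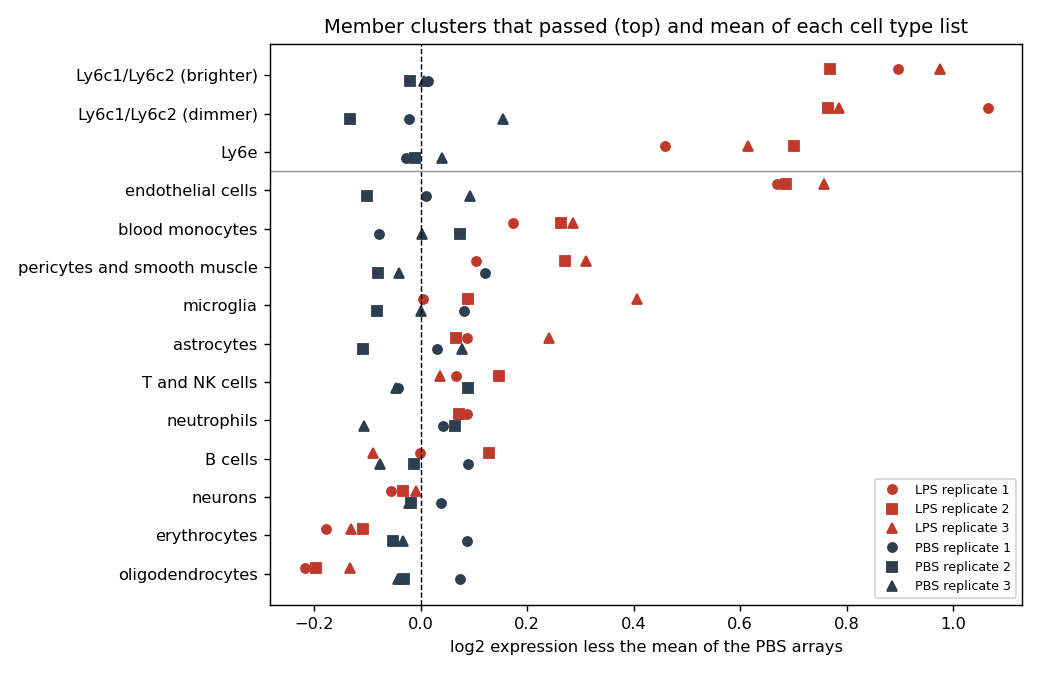
Log2 expression less the mean of the 3 PBS arrays, a point for each array with LPS (red) above PBS (dark) in each row, for the 3 called Ly6 clusters at the top and the mean of 11 cell type lists under them. LPS points of the endothelial list lie below those of both Ly6c1/Ly6c2 clusters and overlap those of Ly6e. Before the subtraction, the endothelial list means are 8.68 to 8.76 on the LPS arrays and 7.90 to 8.10 on the PBS arrays. Those of the neutrophil list are 5.79 to 5.81 on the LPS arrays and 5.61 to 5.78 on the PBS arrays.

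Of 7 blood monocyte markers measured alone, 1 was higher and 0 lower, with a list mean of 6.83 to 6.95 on the LPS arrays and of 6.58 to 6.73 on the PBS arrays. That 1 was Fn1 (difference 0.82, limma adjusted p = 0.0131), the fibronectin gene, which vessels and other cells also transcribe, and it was not called without LPS replicate 2 or PBS replicate 1, 2 or 3, with median centring or by the methods' t-test. At an unadjusted p under 0.05, 2 monocyte genes were higher, the other being Ms4a4c, which read 6.18, 6.41 and 6.73 in LPS-treated mice, against 5.25, 5.82 and 5.76 in vehicle-treated controls. Its difference of 0.83 (limma adjusted p = 0.164, groups apart) was close in size to that of the Ly6c1/Ly6c2 clusters. Ccr2, the chemokine receptor that defines the monocytes marked by high Ly6C, averaged 5.53 in LPS-treated mice and 5.82 in vehicle-treated controls and was above the receptor median on 0 LPS arrays and 1 PBS array. Of 12 neutrophil markers 1 was higher and 0 lower, with a list mean of 5.79 to 5.81 on the LPS arrays and of 5.61 to 5.78 on the PBS arrays. This was the receptor gene Csf3r (difference 0.73, limma adjusted p = 0.0188), which microglia also express, and it was called only in the full fit and without LPS replicate 3 among the fits that left out arrays, and not by the methods' t-test. At an unadjusted p under 0.05, 2 neutrophil genes were higher, the other being Cxcr2, a chemokine receptor (difference 0.29, limma adjusted p = 0.219, groups apart). The part of monocyte and neutrophil RNA in the Ly6 differences was not tested. S100a8 and S100a9, which neutrophils transcribe abundantly, differed by 0.01 and -0.14. Both were below the 90th percentile of the receptor clusters on all 6 arrays, as was Ly6g.

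The genes whose profile over the 6 arrays was most like that of a called member were found by the root mean square difference of log2 values, each less its mean on the PBS arrays, among 19940 genes. For the brighter Ly6c1/Ly6c2 cluster they were Herc6 (0.0309), Cdh5 (0.0546) and BC023105 (0.0607). Herc6 is the main ligase for the ubiquitin-like protein ISG15 in the mouse, and Cdh5 encodes the cadherin of endothelial junctions. For the dimmer cluster they were Itgb2 (0.0525), a leucocyte integrin chain, Tgm2 (0.0878), a transglutaminase, and Cp (0.0944), the copper protein ceruloplasmin. For Ly6e they were Uba7 (0.048), the activating enzyme for ISG15, Ctsz (0.0517), a lysosomal protease, and Flvcr2 (0.0668), a transporter of the brain endothelium. Flvcr2 itself did not pass the test (limma adjusted p = 0.113). The measure favours genes whose LPS difference is close in size to that of the member. Shared regulation or a shared cell type was not tested.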

How the data were processed

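Whole brain RNA of 3 LPS-treated and 3 vehicle-treated mice was hybridized to Affymetrix GeneChip Mouse Gene 1.0 ST arrays, 1 per mouse. The log2 expression values were used as deposited by the authors, who normalized by the robust multichip average (RMA), which corrects background, equalizes the arrays and summarises the probes of a cluster. The study used RMA adjusted for GC content in Partek and RMA 16 in GeneSpring, and the value table does not state which gave its values. RMA draws low values together and so understates their fold changes. Array number limits the precision, and no scanner data or detection calls were used here.

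The platform annotation named the clusters, 21797 with 1 gene, 1613 with several and 12146 with none, and positions, symbols and promoters come from RefSeq (GRCm38.p6). LPS was compared with PBS by lmFit and eBayes of limma 3.58.1 (R 4.3.3), two-sided, over all 35556 clusters with Benjamini-Hochberg adjustment, a threshold of 0.05 and no filter. The unpaired t-test of the study was run on the same values, here with equal variances, and is called the methods' t-test. The fit was tested on simulated data.

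The members and gene lists were chosen with earlier results of these data known. A list gene was read from its brightest cluster that names it alone. Named were all members, up to 4 genes per list with the smallest p, a fixed set of familiar genes, and 3 genes most like each called member. Neighbours in the locus were named after their values were seen. Lists of microglia, astrocytes, oligodendrocytes, pericytes, lymphocytes, plasma cells, erythrocytes and choroid plexus were read as well. Alternatives were other tests, moderation, array weights, normalization, a filter on dim clusters, an offset of 32, other thresholds, a replicate block and arrays left out. Added after seeing the data were the lists without LPS replicates 1 and 2, the members less the endothelial mean, and pairs with the brighter Ly6c1/Ly6c2 cluster.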

Additional observations from a re-analysis of the deposited data

How the results depend on the processing

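The count of 3 higher member clusters was 5 with array weights, 1 with each array centred on its median, 1 at an adjusted p under 0.01, 0 by the methods' t-test and 0 without LPS replicates 1 and 2, and ran from 0 to 5 with a single array left out (0 without PBS replicate 1, 2 or 3, 1 without LPS replicate 1 or 2, and 5 without LPS replicate 3). It stayed at 3 with an intensity trend, robust moderation, quantile normalization, the filter on dim clusters (which removed Ly6i, Ly6g, Ly6h, Ly6d and Ly6k) and the offset, and was 4 at an adjusted p under 0.1. The count of lower member clusters was 0 in all 18 alternatives. No label says that the replicate number pairs the mice. The same-number correlations of deviations (0.09, -0.05 and 0.10) cannot decide it with so few arrays. With the replicate number as a block 0 member clusters were called, as well as 76 higher and 4 lower of all clusters.

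Over all clusters, the 232 higher became 4 by the methods' t-test, 4751 with array weights, 141 with median centring, 356 at 0.1, 97 at 0.01, 71 without LPS replicates 1 and 2 and 74 to 2640 with a single array left out. The 22 lower became 1, 3572, 10, 64, 0, 12 and 0 to 1152 under those settings, and 13 with quantile normalization. The cause of these shifts was not tested. Median centring moved the median of all clusters to -0.09. Log2 differences ran from 0.79 to 0.98 and from 0.77 to 1.05 for the brighter and dimmer Ly6c1/Ly6c2 clusters. With 3 mice a group, the interval of Ly6g spans 0, and its signal over background is known only from the receptor clusters.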

Other observations

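Markers of other brain and immune cells were read beside the Ly6 members. Of 8 microglial genes 1 was higher and 0 lower with a median of 0.06, and that was Olfml3 (difference 0.89, limma adjusted p = 0.0263). It was not called without LPS replicate 2 or PBS replicate 1, 2 or 3, with median centring or by the methods' t-test. At an unadjusted p under 0.05, 3 microglial genes were higher, Cx3cr1 and Csf1r with differences of 0.47 and 0.30 besides Olfml3. Limma called 0 of 6 astrocyte genes (median 0.10), 0 of 6 pericyte and smooth muscle genes (median 0.36), 0 of 10 T and NK cell genes (median 0.05), 0 of 6 B cell genes (median -0.05), 0 of 4 plasma cell genes (median 0.08) and 0 of 9 neuronal genes (median -0.04), and the methods' t-test called 0 as well. At an unadjusted p under 0.05, 4 of the pericyte and smooth muscle genes, 2 of the T and NK cell genes, 1 of the astrocyte genes and 1 of the B cell genes were higher. Among them the granzyme gene Gzma differed by 0.57, Gfap, the astrocyte filament gene, by 0.56 and Abcc9, a pericyte channel subunit, by 0.48, each with the groups apart (limma adjusted p = 0.0768, 0.13 and 0.161). Oligodendrocyte genes had 0 of 4 called and 2 lower at an unadjusted p under 0.05, with a median of -0.20. Of the erythrocyte genes 2 were named alone, with 0 called and 1 lower at an unadjusted p under 0.05, and the globins were named only in shared clusters. Of 6 epithelial and choroid plexus genes 0 were called, also at an unadjusted p under 0.05 (median -0.12).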
